A study of Gallus gallus with 9 samples.

Results

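FN1, FBN1 and ADAMTSL2 are 3 extracellular matrix genes among the 12479 mRNAs listed for granulosa cells of the F1 follicle of laying hens. They were chosen by identifier: a list of transcripts published with the study pairs the symbols FN1, FBN1 and ADAMTSL2 with 1 Ensembl gene each, and the mRNA table has 1 row for each of these genes. All 3 of 3 passed the filter on low values, a level above 0.1 TPM (an abundance scaled to transcript length and to the library total) in at least 1 library, which left 12472 mRNAs for testing. The F1 follicle is the largest of the yolk-filled preovulatory follicles and the next to ovulate. Its granulosa cells were taken from untreated Rohman layers, 210 days old and kept on long days, at 3 stages of the ovulatory cycle: ZT0 (9:00 in the morning), ZT12 (21:00) and ZT20 (5:00). Each stage had 3 hens, each hen gave 1 library, and hens of different stages were different birds. Total RNA was sequenced after removal of ribosomal RNA. The hens were of 1 commercial strain and no group was given a hormone or drug.

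Fibronectin, the product of FN1, is a secreted glycoprotein that cells assemble into fibrils by pulling on it through integrins, and cultured granulosa cells of hen follicles are known to make it. Fibrillin-1, the product of FBN1, is the backbone of the microfibrils, thin beaded filaments that also hold latent complexes of the growth factor TGF-beta. ADAMTSL2 is a secreted glycoprotein of the ADAMTS-like family, related to the ADAMTS proteases but with no protease domain. In humans ADAMTSL2 binds fibrillin-1, and mutations of either gene can cause geleophysic dysplasia, a short-stature disorder. In cell culture, fibrillin microfibrils are laid down on a fibronectin network. The granulosa layer itself has no blood vessels and lies between the perivitelline layer around the oocyte and a basal lamina, with the vascular theca layers, rich in fibrous matrix, on the other side.

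The 3 genes lie on separate chromosomes of the Gallus_gallus 6.0 genome of Ensembl, the build the authors aligned to. FN1 (ENSGALG00000003578) spans chr7:4391168-4439659, which is 48492 bases with 45 exons and a coding length of 7443 bases in the listed transcript. FBN1 (ENSGALG00000004960) spans chr10:10168070-10300782, which is 132713 bases with 66 exons and a coding length of 8571 bases. ADAMTSL2 (ENSGALG00000002955) spans chr17:7447781-7466142, which is 18362 bases with 18 exons and a coding length of 2835 bases. The mRNA table gives 1 value per gene, so the splice forms of FN1 were not analysed here. TPM is a level per transcript length, so levels of different genes can be set side by side, but it keeps no read number and the depth behind each value is unknown.

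mRNAs took 839819 to 883100 TPM per library, and 11805 to 12181 mRNAs lay above 0.1 TPM. Of 10 granulosa cell markers, 3 could be paired with a row (NR5A1, STAR and ZP3), and their summed level was 87471 to 118651 TPM in every library, nearly all of it from ZP3, a protein of the perivitelline layer that granulosa cells of birds secrete. The other 2 moved in opposite directions at ZT20: NR5A1, a regulator of steroid synthesis genes, was 309, 178 and 42.4 TPM at ZT0, ZT12 and ZT20, and STAR, which carries cholesterol into mitochondria, was 1738, 1531 and 13572 TPM. Of the markers of other cells, 0 of 3 theca, 1 of 7 fibroblast, 1 of 6 smooth muscle, 1 of 8 endothelial and 4 of 10 blood cell genes could be paired, so the content of other cells is poorly covered by these lists. ZT0 replicate 3 stood apart from its group for ADAMTSL2 and for CLDN5 and MYOCD, the 1 endothelial and 1 smooth muscle marker paired. The changes of FN1, FBN1, ADAMTSL2, CLDN5 and MYOCD from ZT0 to ZT12 are also given without this library. For the other matrix genes this is done for some only. It stood apart for other genes too, such as STAR (1011 TPM, beside 2133 and 2071 TPM in replicates 1 and 2) and PLAU (3.32 TPM, beside 30.5 and 20.5 TPM). Lanes, dates and batches were not given in the sources used here.

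FN1 was among the most abundant mRNAs of these cells and moved widely between stages. Its level was 460.3, 970.3 and 896 TPM in the 3 hens at ZT0, 97.1, 113 and 172 TPM at ZT12, and 2444, 3609 and 2947 TPM at ZT20. All hens at ZT12 lay below all hens at ZT0, and all hens at ZT20 lay above both other stages. The means were 776 ± 276 TPM at ZT0, 127 ± 39.6 TPM at ZT12 and 3000.2 ± 584 TPM at ZT20 (SD, n = 3 hens each). Ranked by level among the mRNAs tested, FN1 stood at place 114 to 235 in the ZT0 libraries, 567 to 1092 in the ZT12 libraries and 14 to 24 in the ZT20 libraries. Its share of all mRNA TPM was 0.0540 to 0.112% at the ZT0 stage, fell to between 0.0114 and 0.0195% at the ZT12 stage and reached 0.284 to 0.419% at the ZT20 stage.

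FBN1 had the same order of stages at a far lower level. In the hens at ZT0 it was 0.522, 0.753 and 1.38 TPM, at ZT12 it was 0.138, 0.363 and 0.132 TPM, and at ZT20 it was 5.32, 2.55 and 3.85 TPM. The stages were again separated in every hen, although the ZT12 values were close to the 0.1 TPM at which an mRNA was taken as expressed. The means were 0.886 ± 0.445 TPM at ZT0, 0.211 ± 0.131 TPM at ZT12 and 3.91 ± 1.39 TPM at ZT20 (SD, n = 3 hens each). FBN1 ranked between places 7939 and 11859 of the tested mRNAs in the 9 libraries, highest at ZT20.

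ADAMTSL2 followed another order. Its level was 4.55, 8.71 and 20.9 TPM in the hens at ZT0, 2.29, 2.15 and 2.44 TPM at ZT12, and 4.29, 8.70 and 6.05 TPM at ZT20. The 3 hens at ZT12 lay below all others and close together, with an SD of 6.30% of the mean, whereas the hens at ZT0 differed 4.59-fold from lowest to highest and overlapped those at ZT20. The means were 11.4 ± 8.50 TPM at ZT0, 2.30 ± 0.145 TPM at ZT12 and 6.35 ± 2.22 TPM at ZT20 (SD, n = 3 hens each). Within every library but ZT20 replicate 1, where FBN1 was above ADAMTSL2, the order of the TPM levels was FN1, ADAMTSL2, FBN1.

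**Figure D1:**
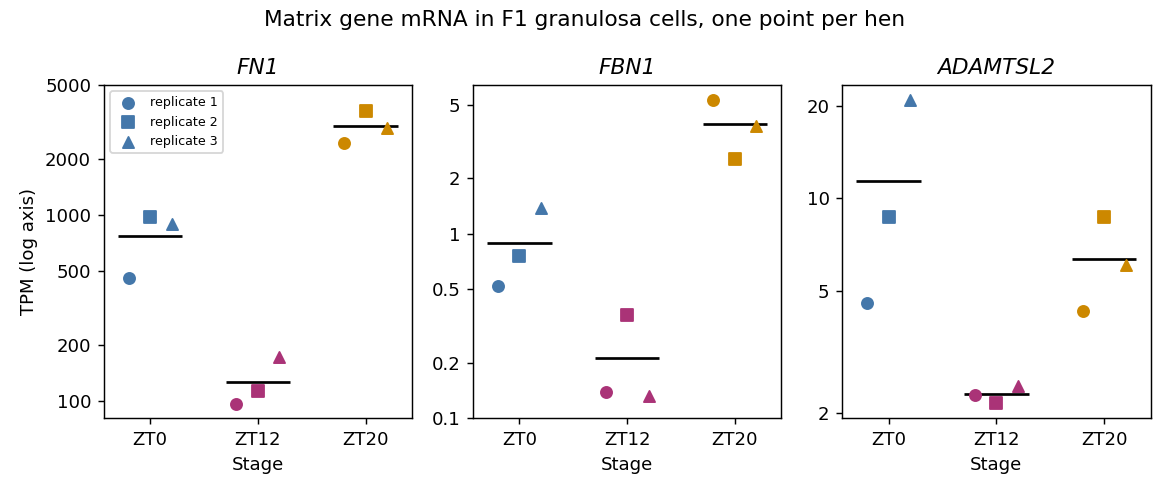
TPM (log axis, scaled separately for each gene) of FN1, FBN1 and ADAMTSL2 in each hen at ZT0, ZT12 and ZT20, with marker shapes for replicates 1 to 3 and a black line at the mean of the 3 hens. For all 3 genes the ZT12 hens are the lowest; FN1 and FBN1 are highest at ZT20, while ADAMTSL2 at ZT0 runs from 4.55 to 20.9 TPM and overlaps ZT20.

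The fall from ZT0 to ZT12 asks how the matrix genes stood in the evening compared with the morning, shortly after these hens usually laid. FN1 fell, with a mean TPM 6.09-fold lower at ZT12 and a log2 fold change of -2.57 (SE 0.305, adjusted p = 0.00438). ADAMTSL2 fell as well, 4.96-fold in mean TPM, with a log2 fold change of -1.68 (SE 0.421, adjusted p = 0.0299). FBN1 was 4.20-fold lower in mean TPM, but its log2 fold change of -0.62 (SE 0.234, adjusted p = 0.0883) did not pass. Differences were tested with limma on log2(TPM + 1) over all 9 libraries, adjusted by Benjamini-Hochberg over the 12472 mRNAs, and a gene was called where its log2 fold change was beyond 1 in either direction and its adjusted p under 0.05. On this scale the change of a gene near or below 1 TPM is understated, which applies to FBN1.

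By that rule 3.86% of all tested mRNAs were called between ZT12 and ZT0, 3.32% as lower and 0.537% as higher, and of the 3 matrix genes 2 were called, both lower. More widely, 41.6% of mRNAs had all ZT12 libraries below all ZT0 libraries, as the 3 matrix genes did, so that separation is common in this comparison, against 3.60% with the reverse separation. The median log2 fold change of all mRNAs was -0.28, and scaling each library by its median ratio moved it to -0.02 and the called mRNAs from 67 higher and 414 lower to 101 higher and 102 lower. Relative to that shift FN1 still fell, with a log2 fold change of -2.22 (adjusted p = 0.00986), and 22 of the tested mRNAs fell further than FN1 before scaling. ADAMTSL2 was at -1.40 with an adjusted p of 0.0802 after that scaling, which is no call, and FBN1 was at -0.50 (adjusted p = 0.228). The call for ADAMTSL2 was also lost when any of 5 libraries was left out: ZT0 replicate 2 or 3 or any ZT12 library, with the adjusted p of all 9 such fits between 0.0122 and 0.0797. Without ZT0 replicate 3 ADAMTSL2 stood at -1.16 (adjusted p = 0.0696), FN1 at -2.42 (adjusted p = 0.0126), still called, and FBN1 at -0.44 (adjusted p = 0.267). Read GC content did not overlap between the ZT0 and ZT12 libraries, so its part in this comparison and that of the stage cannot be told apart. With it as a covariate no member was called: FN1 stood at -2.74 (adjusted p = 0.104) and ADAMTSL2 at -1.53 (adjusted p = 0.268).

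The rise from ZT12 to ZT20 asks what changed across the hours leading to ovulation, and here all 3 genes rose. FN1 rose 23.5-fold in mean TPM, with a log2 fold change of 4.57 (SE 0.305, adjusted p = 9.68e-07), and 115 of the 12472 mRNAs rose further on this scale. FBN1 rose 18.5-fold in mean TPM, with a log2 fold change of 1.98 (SE 0.234, adjusted p = 5.27e-05). With a pseudocount of 0.1 TPM in place of 1, which compresses low levels less, the FBN1 value was 3.71 (adjusted p = 5.35e-05). ADAMTSL2 rose 2.77-fold in mean TPM, with a log2 fold change of 1.11 (SE 0.421, adjusted p = 0.0467), just past both thresholds.

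This was a comparison in which much of the transcriptome moved: 27.8% of mRNAs were called, 16.0% as higher and 11.7% as lower at ZT20. All ZT20 libraries lay above all ZT12 libraries for 34.6% of mRNAs and below them for 26.8%. FN1 and FBN1 were called under each of the 19 alternatives tried, with log2 fold changes of 4.39 to 4.81 and 1.78 to 3.71. The ADAMTSL2 call was lost when any of 6 libraries was left out (ZT0 replicate 2, any ZT12 library, or ZT20 replicate 2 or 3). It was also lost on rescaling without the 10 highest mRNAs (1.06, adjusted p = 0.0608) and with the GC covariate (1.01, adjusted p = 0.150). Over the 9 fits with a library left out the value ran from 0.89 to 1.33 and the adjusted p from 0.00682 to 0.152. Its 3 ZT20 libraries lay above its 3 ZT12 libraries throughout.

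Against ZT0, the ZT20 stage had more FN1 and FBN1, and ADAMTSL2 did not pass the test. FN1 was 3.87-fold higher in mean TPM, with a log2 fold change of 2.01 (SE 0.305, adjusted p = 0.000323). FBN1 was 4.41-fold higher, with a log2 fold change of 1.37 (SE 0.234, adjusted p = 0.000702). ADAMTSL2 was at -0.57 (SE 0.421, adjusted p = 0.279), and its libraries overlapped between these stages. Of all mRNAs 28.2% were called in this comparison, 11.6% as higher and 16.6% as lower. The ZT20 libraries lay wholly above those of ZT0 for 23.2% of mRNAs, FN1 and FBN1 among them, and wholly below for 39.0%. Median ratio scaling changed the calls from 1442 higher and 2070 lower to 1729 higher and 1564 lower. The ADAMTSL2 value depended on the ZT0 hens: without ZT0 replicate 3 it was -0.044 (adjusted p = 0.915), and without ZT0 replicate 1 it was -1.03 (adjusted p = 0.0366), which is a call. The 3 comparisons share libraries in pairs and are not independent of each other. In bulk RNA of this kind, fewer cells of a type and less RNA per cell cannot be told apart.

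**Figure D2:**
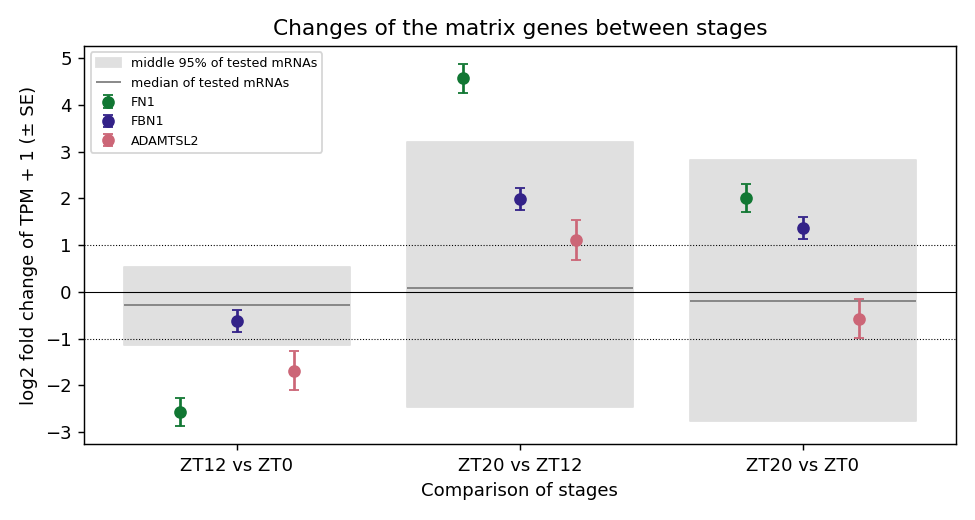
log2 fold change of TPM + 1 (± SE of the limma fit) of FN1, FBN1 and ADAMTSL2 in the 3 comparisons of stages, over a grey band for the middle 95% of all 12472 tested mRNAs and a grey line at their median; dotted lines mark the threshold of 1 in either direction. FN1 (-2.57) and ADAMTSL2 (-1.68) lie below the band at ZT12 against ZT0, FN1 lies above it at ZT20 against ZT12 (4.57), and ADAMTSL2 is the one gene of the 3 below 0 at ZT20 against ZT0 (-0.57).

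Ratios within a library are free of the scaling between libraries and show whether the genes kept in step. The ratio of FN1 to FBN1 varied among hens as much as among stages, from 312 to 1416 over the 9 libraries. Its mean log2 differed by -0.46 between ZT12 and ZT0, 0.27 between ZT20 and ZT12 and -0.19 between ZT20 and ZT0. The libraries overlapped each time (exact permutation test, two-sided, p = 0.7, 0.7 and 0.8). With 3 hens against 3 no p below 0.1 is possible, so these tests could not pass and do not show that the genes kept in step. The ratio of FN1 to ADAMTSL2 was 101, 111 and 42.9 at ZT0, 42.3, 52.6 and 70.6 at ZT12, and 570.1, 415 and 487 at ZT20. All ZT20 hens were thus above all others, by 3.17 on the log2 scale against ZT12 and 2.63 against ZT0, while ZT12 and ZT0 overlapped (difference -0.54).

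The ratio of ADAMTSL2 to FBN1 was 8.72, 11.6 and 15.1 at ZT0, 16.6, 5.93 and 18.5 at ZT12, and 0.806, 3.41 and 1.57 at ZT20. Again the ZT20 hens stood apart, lower by 2.91 on the log2 scale than ZT12 and by 2.82 than ZT0, and the earlier stages overlapped. For each of these 4 separations the exact permutation test gave p = 0.1, the smallest that 3 against 3 allows, and 0.225 adjusted over the 9 ratio tests, so none could pass. By these values ADAMTSL2 rose less from ZT12 to ZT20 than FN1 or FBN1 in every pairing of hens. No test of this could reach the threshold. The ratios to FBN1 at ZT12 rest on FBN1 levels of 0.132 to 0.363 TPM, near the filter of 0.1 TPM and of unknown depth.

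**Figure D3:**
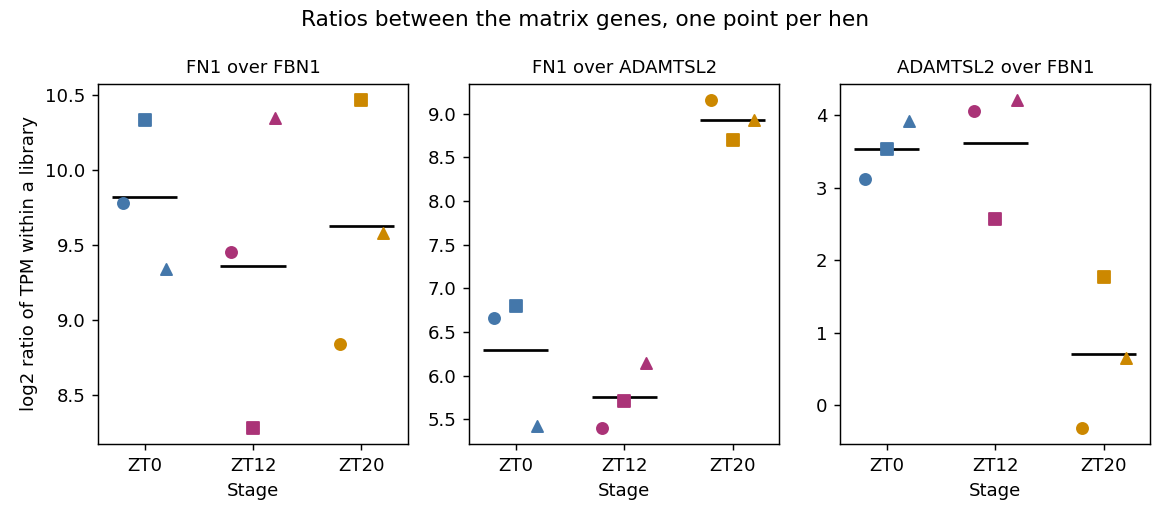
log2 ratio of TPM between pairs of the 3 genes within each library, by stage, with marker shapes for replicates 1 to 3 and a black line at the mean of the 3 hens. The stages overlap for FN1 over FBN1, and the ZT20 hens lie apart from both earlier stages for FN1 over ADAMTSL2 (415 to 570.1 as a plain ratio) and for ADAMTSL2 over FBN1 (0.806 to 3.41).

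Other matrix genes were read from lists of 173 symbols, of which 39 could be paired with a row, since the part of the published transcript list used here names 1824 of the mRNAs. Between ZT12 and ZT0, 3 of the 39 were called (7.69%, beside 3.86% of all mRNAs), and their median log2 fold change was -0.22, beside -0.28 for all. Between ZT20 and ZT12, 10 of the 39 were called higher and 7 lower (43.6%, beside 27.8% of all mRNAs), with a median of 0.34 beside 0.08. Between ZT20 and ZT0, 8 were called higher and 9 lower (43.6%, beside 28.2% of all mRNAs), with a median of 0.23 beside -0.19. These 39 genes thus did not all move one way, and the other listed genes were not analysed here.

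The partners of fibrillin are thinly covered, with 2 of 25 genes of microfibrils and elastic fibres paired. THSD4, which encodes ADAMTSL6, another ADAMTS-like protein that binds fibrillin-1, had mean levels of 1.25, 2.10 and 8.39 TPM at ZT0, ZT12 and ZT20. It rose between ZT12 and ZT20 (log2 fold change 1.60, SE 0.184) and was called higher at ZT20 than at ZT0 (2.09), but it had no low point at ZT12 like that of ADAMTSL2. MFAP3, a membrane glycoprotein first found with microfibrils, was not called in any comparison, with 56.4 to 58.6 TPM at ZT0, 43.4 to 54.4 TPM at ZT12 and 67.7 to 71.9 TPM at ZT20. Its hens were thus separated in the same order of stages as those of FN1 and FBN1, within a log2 fold change of 0.53 from ZT12 to ZT20. The share of all mRNAs separated in this order was not computed. Single steps of it were common: 41.6% had all ZT12 libraries below all ZT0 libraries. Of all mRNAs, 34.6% had all ZT20 libraries above all ZT12 libraries and 23.2% above all ZT0 libraries. Of the 25 genes of the ADAMTS and ADAMTS-like family, THSD4 and ADAMTS15 could be paired. ADAMTS15, a protease of the large proteoglycan versican, ran the other way, from 1.94 TPM at ZT0 through 0.843 to 0.110 TPM at ZT20, and was called lower at ZT20 than at ZT0 (log2 fold change -1.38, SE 0.260).

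Cells hold fibronectin through integrins that are tied to actin by talin and vinculin, and 6 of 29 genes of this machinery were paired. ITGAV, the alpha-V integrin subunit that binds the RGD motif of fibronectin, stood at 21.0, 19.5 and 35.0 TPM at ZT0, ZT12 and ZT20, and its log2 fold change of 0.81 from ZT12 to ZT20 is under the threshold of 1. LIMS2, an adaptor of integrin-linked kinase, rose from 38.8 to 109 TPM between ZT12 and ZT20 (log2 fold change 1.46, SE 0.197). TLN2 and VCL, which encode talin 2 and vinculin, fell over the same hours. TLN2 went from 13.5 to 6.28 TPM (a log2 fold change just beyond the threshold of 1, SE 0.193) and VCL from 27.2 to 5.27 TPM (-2.20, SE 0.236). TLN1 and the fibronectin-binding proteoglycan gene SDC4 were not called in any comparison. From ZT12 to ZT20, then, 1 gene of this list was called higher and 2 lower, beside 27.8% of all mRNAs called. Between ZT12 and ZT0, 0 of 6 was called, beside 3.86% of all mRNAs, and all 6 log2 fold changes were below 0 with a median of -0.40, beside -0.28 for all mRNAs.

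Among 11 paired genes of matrix glycoproteins and collagens, 1 was called higher and 1 lower from ZT12 to ZT20 (18.2%, below the 27.8% of all mRNAs). TSKU, a small leucine-rich proteoglycan that binds TGF-beta and BMP ligands, rose from 1.55 ± 1.34 to 81.3 ± 11.8 TPM (SD, n = 3 hens each; log2 fold change 5.12, SE 0.451), a larger change than that of FN1. TNR, which encodes tenascin-R, had a mean of 10.3 TPM at ZT0, 19.3 TPM at ZT12 and 11.1 TPM at ZT20. It was not called, with log2 fold changes of 0.96 at ZT12 against ZT0 and -0.64 at ZT20 against ZT12. Without ZT0 replicate 3 the TNR value at ZT12 against ZT0 was 0.39. TNN, which encodes tenascin-W, fell to 10.4 TPM at ZT20 (log2 fold change -2.27) from a level at ZT12 close to the 55.4 TPM of ZT0. COL6A3, a chain of collagen VI, was at most 0.0309 TPM in the 6 earlier libraries and 0.611 to 1.09 TPM at ZT20, with a log2 fold change of 0.89 on the TPM + 1 scale. LAMB3, a laminin chain of epithelial basement membranes, was the 1 gene of the 39 called lower at ZT12 than at ZT0, from 2.33 to 0.527 TPM (log2 fold change -1.09), and without ZT0 replicate 3 it was at -0.95 and not called. SPARC, the most abundant gene of this list, stood at 3365, 1996 and 1851 TPM at ZT0, ZT12 and ZT20 and was not called, and the mean of FN1 was above that of SPARC at ZT20 and below it at both earlier stages. Of the 5 paired genes of collagen processing, PCOLCE2, an enhancer of procollagen cleavage, rose from 5.78 to 63.0 TPM and P4HA1, a subunit of prolyl 4-hydroxylase, from 92.5 to 215 TPM between ZT12 and ZT20 (log2 fold changes 3.28 and 1.21). All 5 log2 fold changes were positive in that comparison, with a median of 0.40, beside 0.08 for all mRNAs. Of the 5 genes 2 were called and 3 were not (40% called, beside 27.8% of all mRNAs). Between ZT12 and ZT0, 0 of the 5 genes was called, beside 3.86% of all mRNAs.

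Of 14 paired genes of matrix turnover, 5 were called higher and 4 lower between ZT12 and ZT20 (64.3%, beside 27.8% of all mRNAs). Those higher were ADAM19, a membrane metalloprotease (log2 fold change 2.41), MRC2, a collagen uptake receptor (1.76), the serpin genes SERPINF1 (1.46) and SERPINE2 (1.29), and SULF2, a sulfatase of heparan sulfate (1.04). Those lower were the metalloprotease genes ADAM9 (-2.58) and ADAM10 (-1.24), PLAU, which encodes urokinase (-2.23), and TIMP4, an inhibitor of metalloproteases (-1.05). SERPINF1, which encodes the secreted protein PEDF, and SERPINF2, which encodes the plasmin inhibitor alpha-2-antiplasmin, were already called higher at ZT12 than at ZT0 (1.72 and 1.04), opposite to FN1. Without ZT0 replicate 3 SERPINF1 kept its call (1.59) and SERPINF2 lost it (1.01, adjusted p = 0.0986), while PLAU went from -0.91 and no call to -1.78 (adjusted p = 0.0256), a call.

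Fibrillin microfibrils hold latent TGF-beta, and 6 of 37 genes of TGF-beta and BMP signalling were paired. SKI, a corepressor that dampens SMAD signalling, rose from 24.6 ± 2.29 to 252 ± 34.2 TPM between ZT12 and ZT20 (SD, n = 3 hens each; log2 fold change 3.30). NOG, which encodes the BMP antagonist noggin, and GDF3, a ligand of this family, fell over the same hours (-2.42 and -1.56). SMURF1, a ubiquitin ligase of the pathway, was at 0.95 and was not called. Between ZT12 and ZT0, 0 of the 6 was called, beside 3.86% of all mRNAs. Their log2 fold changes ran from -0.84 to -0.16, beside a median of -0.28 for all mRNAs.

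**Figure D4:**
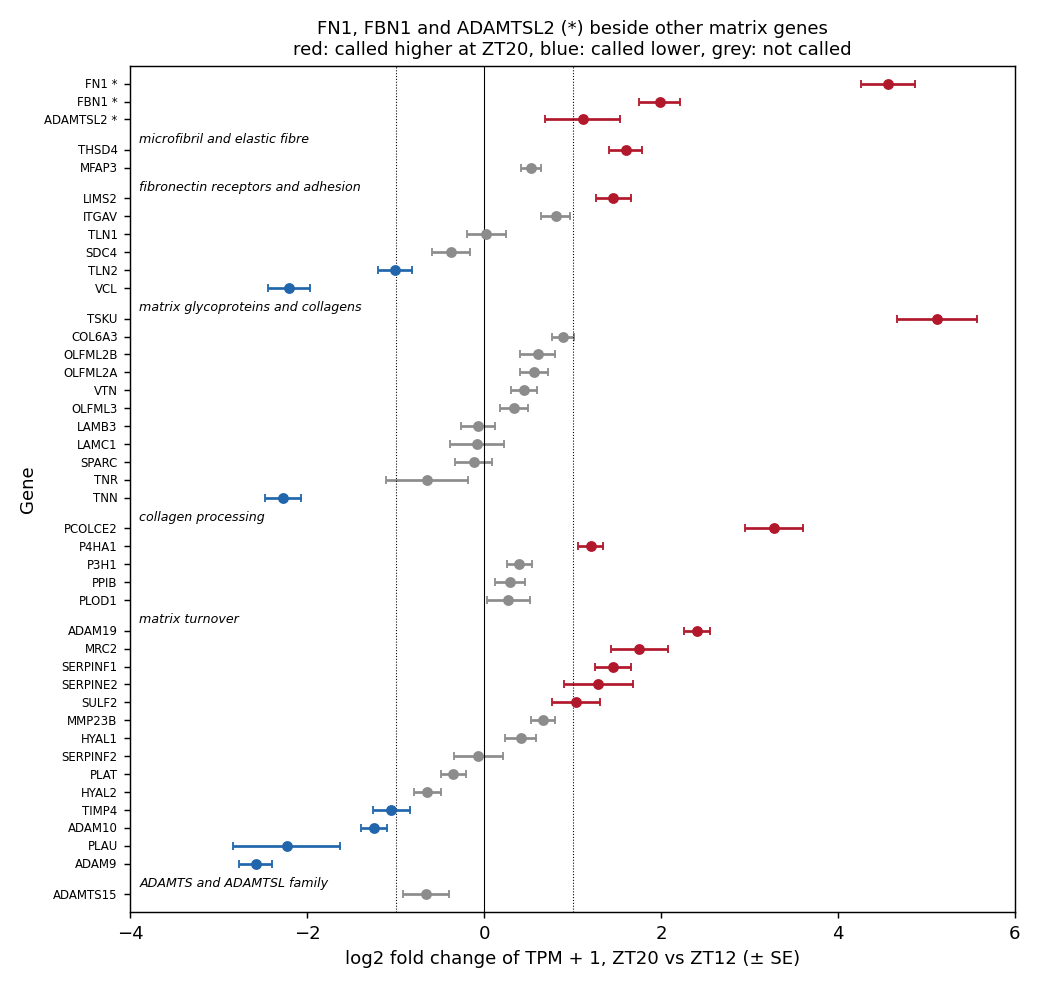
log2 fold change of TPM + 1 from ZT12 to ZT20 (± SE of the limma fit) of FN1, FBN1 and ADAMTSL2, marked with an asterisk, and of the 39 other matrix genes that could be paired, grouped by list with each gene drawn once; dotted lines mark the threshold of 1. On this scale FN1 (4.57) is exceeded by TSKU (5.12). The other genes fall on both sides of 0, with 10 called higher in red and 7 called lower in blue. Changes of genes near or below 1 TPM at ZT12, such as ADAM19 and COL6A3, are understated on this scale.

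Markers of other cells were set beside the 3 genes. Endothelial CLDN5, a tight junction gene, was 42.3, 24.5 and 74.5 TPM in the ZT0 hens, 14.2 to 19.3 TPM at ZT12 and 4.16 to 5.15 TPM at ZT20. MYOCD, a coactivator of smooth muscle genes, was 0.598, 0.411 and 2.99 TPM in the ZT0 hens, 0.0195 to 0.167 TPM at ZT12 and 0 to 0.0249 TPM at ZT20. Both were highest in ZT0 replicate 3, the hen with the highest ADAMTSL2 (20.9 TPM) and, among the ZT0 hens, the highest FBN1 (1.38 TPM). FN1 was not highest in that hen. Other genes peaked there too, such as the granulosa marker NR5A1 (350 TPM) and SPARC (3950 TPM), while STAR and ZP3 did not. The median level of the tested mRNAs was also highest in that library (15.2 TPM). The share of all mRNAs that peaked there was not computed. CLDN5 fell from ZT0 to ZT12, as ADAMTSL2 did (log2 fold change -1.37), and MYOCD was at -0.91 and was not called. Without ZT0 replicate 3 these values were -0.98 (adjusted p = 0.0665) for CLDN5, which is no call, and -0.44 (adjusted p = 0.0840) for MYOCD. At ZT20 every hen was below every ZT12 hen for CLDN5 and above every ZT12 hen for ADAMTSL2. Of all mRNAs, 26.8% were separated in the first way and 34.6% in the second. The single paired fibroblast gene, COL6A3, was highest at ZT20 like FBN1, at 0.611 to 1.09 TPM. The 4 paired blood cell genes summed to 34.3 to 56.7 TPM at ZT0, 35.1 to 137 TPM at ZT12 and 20.1 to 32.7 TPM at ZT20, nearly all of it CD74. CD74 had its highest mean at ZT12, with 47.2, 74.0 (SD 54.6) and 26.5 TPM at ZT0, ZT12 and ZT20. It was called lower at ZT20 than at ZT12 (log2 fold change -1.24, adjusted p = 0.0366). The other 3 had their lowest mean at ZT12, and none was called. By another measure, all ZT12 libraries below all ZT0 libraries, BTK and DOCK2 were among 41.6% of all mRNAs and PTPRC was not. The share of all mRNAs with their lowest mean at ZT12 was not computed. PTPRC was 0.474, 0.299 and 0.676 TPM at ZT0, ZT12 and ZT20, BTK was 0.793, 0.291 and 0.564 TPM, and DOCK2 was 0.432, 0.158 and 0.610 TPM. The part of other cell types in the levels of FBN1 and ADAMTSL2 was not tested.

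Of 1820 other mRNAs with a symbol that were tested, those most like each gene were picked by Pearson r on log2(TPM + 1) over the 9 libraries. These libraries form 3 stages, so the r values describe a shared pattern of stages more than 9 separate points. For FN1 the 5 most alike were SLC7A4 (r = 0.990), ATP6V0A1 (0.983), DPEP2 (0.983), XPR1 (0.982) and MED1 (0.980). DPEP2, a membrane dipeptidase gene, had the nearest range of change, with 8.53 ± 4.77, 0.438 ± 0.292 and 40.5 ± 8.32 TPM at ZT0, ZT12 and ZT20 (SD, n = 3 hens each). For FBN1 they included ZZEF1 (0.983), PLS1 (0.982), AGTRAP (0.981) and FNBP1 (0.979). PLS1, which encodes the actin-bundling protein plastin 1, stood at 5.80, 1.38 and 39.3 TPM at ZT0, ZT12 and ZT20, above FBN1 in mean level at each stage.

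For ADAMTSL2 the 5 most alike were MLLT1 (0.971), ZMIZ1 (0.964), SLC6A4 (0.963), SGPL1 (0.946) and SP2 (0.941). SLC6A4, the serotonin transporter gene, was 6.75, 12.7 and 44.2 TPM in the ZT0 hens, 0.424 to 0.796 TPM at ZT12 and 3.22 to 5.71 TPM at ZT20. Like ADAMTSL2 it was highest in ZT0 replicate 3, lowest at ZT12 and intermediate at ZT20. It was picked by its r with ADAMTSL2 over these same libraries, so this likeness follows from the choice. Among the 3 matrix genes r was 0.898 between FN1 and FBN1, 0.633 between FN1 and ADAMTSL2 and 0.405 between FBN1 and ADAMTSL2.

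**Figure D5:**
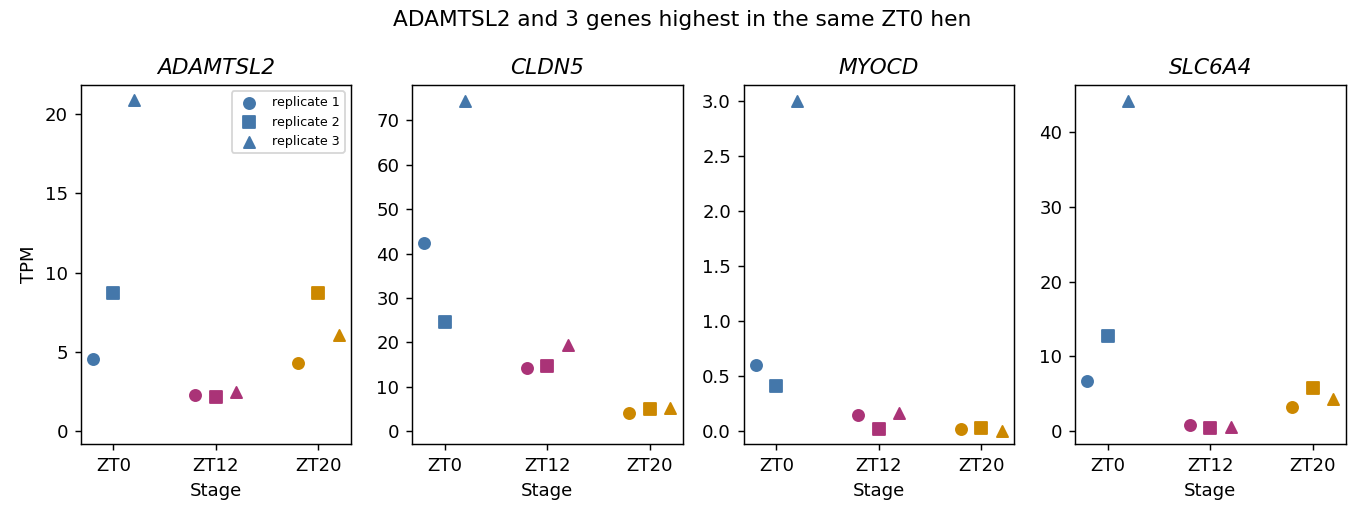
TPM of ADAMTSL2, CLDN5 (endothelial marker), MYOCD (smooth muscle marker) and SLC6A4 (among the 5 genes most like ADAMTSL2) in each hen by stage, on linear axes scaled separately for each gene, with marker shapes for replicates 1 to 3. ZT0 replicate 3 is the highest library in all 4 panels (20.9, 74.5, 2.99 and 44.2 TPM). NR5A1 and other genes not shown also peaked in that library, and the share of all mRNAs doing so was not computed. At ZT20 ADAMTSL2 and SLC6A4 are above ZT12 while CLDN5 and MYOCD are not. SLC6A4 was picked for its likeness to ADAMTSL2 over these same libraries, so its shared pattern follows from that choice.

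Neighbours within 100 kb on the chromosome were read beside each gene. ATIC, an enzyme gene of purine synthesis that lies 4186 bases from FN1, stayed at 39.5, 39.6 and 42.6 TPM at ZT0, ZT12 and ZT20, with a log2 fold change of 0.10 from ZT12 to ZT20 (adjusted p = 0.476). The neighbour of FBN1, ENSGALG00000005011 at a distance of 69370 bases, was 0.316, 0.235 and 3.12 TPM. It rose from ZT12 to ZT20 (log2 fold change 1.71, adjusted p = 2.87e-05). Between ZT12 and ZT0 it hardly moved (log2 fold change -0.093, adjusted p = 0.743). Its ZT12 hens lay below its ZT0 hens, as for 41.6% of all mRNAs. Near ADAMTSL2, SURF2 (96111 bases away) was flat at 25.3, 25.0 and 24.7 TPM. VAV2 (59353 bases away), a guanine nucleotide exchange factor, was 2.36, 1.97 and 0.263 TPM and was called lower at ZT20 than at ZT0 (log2 fold change -1.33, adjusted p = 0.0377). ENSGALG00000003175, 70932 bases away, was 2.73, 1.77 and 1.15 TPM and was not called in any comparison.

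Long non-coding RNAs were also listed beside ADAMTSL2. G5611 lies within its span, at chr17:7450353-7453360, and was 1.06 ± 0.442, 0.858 ± 0.142 and 0.370 ± 0.0978 TPM at ZT0, ZT12 and ZT20 (SD, n = 3 hens each). Whether counting used the strand was not given in the sources used here. Reads from any sequence that G5611 and ADAMTSL2 share therefore cannot be told apart, and how much they share was not examined. G5613, 13731 bases away, was 2.57 ± 0.406 TPM at ZT0, 0.896 ± 0.535 TPM at ZT12 and 1.24 ± 0.479 TPM at ZT20. The ZT0 hens were thus above all others for G5613, and the hens at ZT12 and ZT20 overlapped. Such separations were common among mRNAs: 41.6% had all ZT12 libraries below all ZT0 libraries and 39.0% all ZT20 libraries below them. The share among lncRNAs was not computed. The levels of G5611 and G5613 rest on a reading of their table as log2(TPM + 2), and they were not tested.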

How the data were processed

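RNA of F1 granulosa cells from 9 hens was analysed, 3 at each stage, with stage and replicate taken from the labels. Per the study's methods and labels, the authors mapped reads to the Gallus_gallus 6.0 genome with STAR 2.6.0c, assembled lncRNAs with Cufflinks and estimated TPM by Kallisto. The values they deposited are on a log2 scale. They were turned back into TPM as log2(TPM + 1) for mRNAs and as log2(TPM + 2) for lncRNAs. The lncRNA values start at 1, and the summed TPM of both tables varied less between libraries under this reading (972378 to 983179) than if 1 had been added to log2(TPM + 1) (906098 to 933018). No column was left unmapped. TPM holds no depth, so no counting interval is given, and the DESeq2 test of the authors, which needs counts, was not run.

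mRNAs above 0.1 TPM in at least 1 library were fitted with limma 3.58.1 (R 4.3.3; 3 stage means, 6 residual degrees of freedom, mean-variance trend), and the fit was tested on simulated data. Ratios within libraries were compared by exact permutation (scipy 1.17.1 under Python 3.11.15).

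The members and lists were chosen with earlier results of these data known. Named were the 3 members, the list genes with the 2 largest changes each way per list from ZT12 to ZT20 and the called ones of the microfibril, ADAMTS and receptor lists, the 5 mRNAs of highest r with each member, and neighbours within 100 kb. An mRNA among those most like FBN1 is not reported here. The other called genes of the turnover list, LAMB3, SPARC, MFAP3, SDC4 and TLN1 were added once their values had been seen. The reference table of symbols did not pair with the identifiers.

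Results were recomputed with read GC content as a covariate, with a replicate block, with median ratio or quantile scaling, after rescaling without the 10 highest mRNAs, with a pseudocount of 0.1 TPM, with stricter or no filtering, without the trend, on the compared stages alone, without the fold threshold, and with each library left out.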

Additional observations from a re-analysis of the deposited data

How the results depend on the processing

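FN1 and FBN1 kept their calls at ZT20 against ZT12 and against ZT0 in all 19 alternatives. At ZT12 against ZT0, FN1 was not called with read GC content as a covariate (-2.74), and FBN1 was called with a pseudocount of 0.1 TPM (-1.65, adjusted p = 0.0347). ADAMTSL2 at ZT12 against ZT0 was not called under median ratio scaling (-1.40), quantile normalization (-1.32), rescaling without the 10 highest mRNAs (-1.62), a fit of only the compared stages (-1.68) or the GC covariate (-1.53). At ZT20 against ZT12 it was not called under that rescaling (1.06) or the GC covariate (1.01). With single libraries left out, ADAMTSL2 ran from -2.15 to -1.16 at ZT12 against ZT0, from 0.89 to 1.33 at ZT20 against ZT12 and from -1.03 to -0.044 at ZT20 against ZT0. The cause of these changes was not tested.

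The 481 mRNAs called between ZT12 and ZT0 became 785 with the smaller pseudocount, 203 under median ratio scaling, 215 under quantile normalization, 305 without the 10 highest mRNAs, 4 with the GC covariate (0 of the 39 matrix genes) and 196 to 699 with a library left out. Without the fold threshold 2089, 6638 and 6676 mRNAs were called in the 3 comparisons, and 7, 26 and 28 of the 39 matrix genes. With a library left out, 13 to 17 of the 39 matrix genes were called between ZT20 and ZT12. Same-numbered hens of different stages did not deviate together (r from -0.187 to 0.0784 over 9 pairs, with 1 of 9 libraries most like its own number). With the replicate block, 388 mRNAs were called between ZT12 and ZT0, 3466 between ZT20 and ZT12 and 3512 between ZT20 and ZT0, and no call of FN1, FBN1 or ADAMTSL2 changed. TPM gives no depth, so the counting error of the low FBN1 values is unknown.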
